A study of Mus musculus with 56 samples.

Results

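The oligoadenylate synthetase (OAS) family was examined through 6 mouse genes, Oas1a, Oas1b, Oas2, Oas3, Oasl1 and Oasl2, in the livers of mice given LNA gapmers. The members were the probe sets annotated to exactly 1 of these symbols. Each gene had 1 such probe set, so that 6 of 34958 probe sets with a single symbol, and 6 of 18194 genes, belonged to the family. All 6 genes lie on chromosome 5 (GRCm38.p6). Oasl2 spans 114896926 to 114912245 (probe set 1453196_a_at) and Oasl1 lies next to it at 114923143 to 114937911 (1424339_at). The others lie further along the chromosome, with Oas2 at 120730333 to 120749886 (1425065_at), Oas3 at 120753098 to 120777684 (1425374_at), Oas1b at 120812635 to 120824163 (1425119_at) and Oas1a at 120896256 to 120907544 (1424775_at). The annotation of that build lists Oas1b as a transcribed pseudogene and the others as protein-coding.

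OAS enzymes are sensors of double-stranded RNA. When bound to it they join ATP into short 2'-5'-linked oligoadenylates (2-5A), a second messenger that leads to the cleavage of viral and cellular RNA. The genes are classical targets of type I interferon, whose receptor acts through a complex with Stat2 and Irf9 on the interferon-stimulated response element, and in liver they can be induced in hepatocytes as well as in immune cells. Oas1a, Oas2 and Oas3 encode synthetases, Oas1b is known in mice for its link to flavivirus resistance, and the OAS-like proteins Oasl1 and Oasl2 carry ubiquitin-like domains. Mouse Oasl2 is an active synthetase, whereas Oasl1 lacks that activity and is known in mice to restrain translation of Irf7 mRNA.

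The study compared 3 LNA gapmers, antisense oligonucleotides with locked nucleic acid ends and a DNA centre that recruits RNase H, which the labels call NTS-1 (non-toxic), TS-2 (toxic) and HTS-3 (severely toxic). All animals were male CD-1 mice, an outbred strain, aged 6 to 8 weeks at the start, and a treated mouse received 25 mg/kg by subcutaneous injection in 10 mL/kg of Dulbecco's phosphate buffered saline, which alone was the vehicle. From the 10 mice dosed in each group at each time, only the 3 or 4 livers with the top scores for minor hepatic hypertrophy were profiled, which makes the single-dose groups a selection. No HTS-3 liver was sampled at 72 h, because those mice died or were killed moribund. After a single dose there were 3, 4 and 3 NTS-1 mice at 8, 16 and 72 h, 4, 3 and 4 TS-2 mice, 3 and 4 HTS-3 mice at 8 and 16 h, and 3 vehicle mice at each time. In the 2-week study mice were dosed on days 1, 4, 8 and 11 and killed on day 14, with 4 NTS-1, 5 TS-2 and 10 vehicle mice. The genes the sequences target were not used here.

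The promoters of the 3 members that changed, and of Oas3 beside them, are shown because the interferon response of this family acts through promoter elements. Each runs 5' to 3' on the gene's own strand, from 250 bases before the start of the transcript to 50 bases after it, as given by RefSeq for GRCm38.p6. Capitals mark matches to the core of the interferon-stimulated response element, which is GAAA, any 2 bases and GAAA again, searched on both strands.
Oas1a, chr5:120907476-120907775, minus strand: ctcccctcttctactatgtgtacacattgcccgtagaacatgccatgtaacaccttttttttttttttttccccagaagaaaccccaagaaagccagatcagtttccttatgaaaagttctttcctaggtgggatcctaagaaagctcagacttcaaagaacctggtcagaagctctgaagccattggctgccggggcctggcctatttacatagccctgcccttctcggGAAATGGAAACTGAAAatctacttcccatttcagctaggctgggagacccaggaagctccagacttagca
Oasl1, chr5:114922990-114923289, plus strand: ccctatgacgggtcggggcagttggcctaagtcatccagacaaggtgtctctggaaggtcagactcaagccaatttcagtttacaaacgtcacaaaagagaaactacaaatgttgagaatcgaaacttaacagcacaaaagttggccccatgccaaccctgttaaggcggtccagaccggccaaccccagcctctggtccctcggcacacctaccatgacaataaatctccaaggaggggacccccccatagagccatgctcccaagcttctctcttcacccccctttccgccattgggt
Oasl2, chr5:114896684-114896983, plus strand: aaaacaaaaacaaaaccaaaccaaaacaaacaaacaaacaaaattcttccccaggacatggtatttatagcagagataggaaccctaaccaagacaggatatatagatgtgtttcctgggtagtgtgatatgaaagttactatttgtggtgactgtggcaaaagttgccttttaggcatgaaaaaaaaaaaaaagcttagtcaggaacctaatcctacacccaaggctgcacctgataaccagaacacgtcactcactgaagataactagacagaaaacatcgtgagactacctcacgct
Oas3, chr5:120777610-120777909, minus strand: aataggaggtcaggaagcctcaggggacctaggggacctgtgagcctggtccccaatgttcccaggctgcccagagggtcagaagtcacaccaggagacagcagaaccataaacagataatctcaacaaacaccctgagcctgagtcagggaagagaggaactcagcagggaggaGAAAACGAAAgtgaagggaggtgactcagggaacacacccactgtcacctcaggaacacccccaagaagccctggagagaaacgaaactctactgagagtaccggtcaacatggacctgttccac
Promoters were on hand for these 4 of the 6 members, and those of Oas1b and Oas2 were not used here. Oas1a held 2 overlapping matches, at -20 to -11 and at -14 to -5 relative to the start, and Oas3 held 1, at -75 to -66. In Oasl1 and Oasl2 these letters were not found in this window. Of all 32851 promoters in the table, 3.44% held a match. TTCNNNGAA, the gamma-activated site, matched once in Oas1a, at -98 to -90, and in 8.30% of all promoters.

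The deposited values are array intensities on a linear scale, and their log2 values were compared. The 2 sets of arrays differ in scale. On the 37 single-dose arrays between 44.1% and 47.3% of probe sets lay at a shared floor of 4.56, whereas the lowest values of the 19 arrays of the 2-week study were 6.10 to 6.92, so the sets were fitted apart and no level is compared between them. Alb, which encodes albumin and marks hepatocytes, lay between 64004 and 90147 on the single-dose arrays and between 31792 and 34239 on the 2-week arrays. Mouse 1 of the vehicle group at 16 h stood apart, with a summed intensity of neutrophil markers of 27901, against 234 and 484 in the other vehicle mice of that time. Mouse 3 of the HTS-3 group at 8 h is given as 8 h in its title and as 16 h in its description. On the array of mouse 4 of the HTS-3 group at 16 h the Actb 3' signal exceeded the 5' signal by 1.15 on the log2 scale, the lowest of all arrays, against 1.49 to 1.77 in the others of its group, and its highest intensity (161420) was the highest of the single-dose arrays. Beside the changes of Oas1a, Oasl1 and Oasl2 that these 3 mice enter, the values without them are given. All differences come from limma with Benjamini-Hochberg adjustment over all genes tested, and a gene is said to have risen or fallen where the adjusted p was below 0.05. Whether the values of 2 groups overlapped is given only as a description, since the share of all genes with groups apart was not counted. In such bulk samples fewer cells of a type and less RNA per cell cannot be told apart.

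Only 3 members were measurable after a single dose. Oas1a was above an intensity of 32, below which values are treated as dim, on all 37 single-dose arrays, Oasl1 on 34 and Oasl2 on 13. Oas1b lay at the floor of 4.56 on all 37 arrays. Oas2 lay there on 33 arrays and reached at most 5.27, in an NTS-1 mouse at 8 h, and Oas3 lay there on 34 and reached at most 5.03 in the same mouse. On the 2-week arrays the same 3 probe sets were at or above 32 in every mouse, with Oas1b between 40.9 and 60.6, Oas2 between 135.9 and 224.8 and Oas3 between 47.3 and 75.0. There 54.3% to 57.5% of all probe sets reached 32, against 32.1% to 33.3% on the single-dose arrays. The median probe set of a 2-week array read 37.7 to 41.1. A value above 32 on these arrays therefore does not show that a gene was expressed, and Oas1b and Oas3 lay near the median. Several levels also recurred exactly between mice: Oasl2 read 15.8 on 9 of 37 single-dose arrays and Oas1a read 108 on 4.

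**Figure D1:**
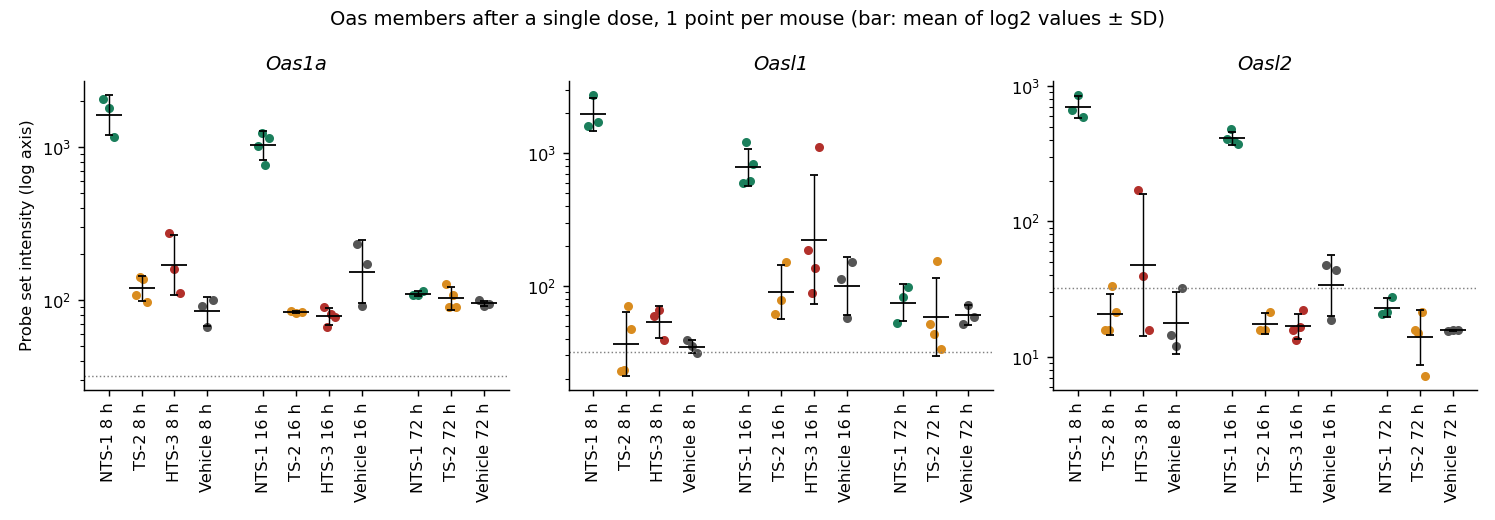
Intensity of Oas1a, Oasl1 and Oasl2 (log axis) in each single-dose mouse, by gapmer and time, with the mean of the log2 values ± SD as a bar; the dotted line is the limit of 32. The NTS-1 mice at 8 and 16 h lie above all others for Oas1a and Oasl2, while for Oasl1 an HTS-3 mouse at 16 h (1111) lies among them.

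NTS-1 raised all 3 measurable members at 8 h. Oas1a, one of the small synthetases, had intensities of 2062, 1794 and 1163 in NTS-1 livers, against 91.0, 66.4 and 100.6 in vehicle livers. Oasl1 read 1589.8, 2737 and 1724 in NTS-1 livers, against 38.8, 35.2 and 31.1 in vehicle livers. Oasl2 read 664, 853 and 589.8 in NTS-1 livers, against 14.6, 12.0 and 32.3 in vehicle livers. The lowest NTS-1 liver was above the highest vehicle liver for each of the 3 genes. The changes on the log2 scale were 4.26 ± 0.28 for Oas1a (19.2-fold, adjusted p = 9.6e-11), 5.81 ± 0.64 for Oasl1 (56.1-fold, adjusted p = 1.5e-06) and 5.28 ± 0.53 for Oasl2 (SE, adjusted p = 2.8e-07). Because vehicle livers were dim for Oasl2, its rise is given as at least 21.6-fold, with values under 32 taken as 32; for Oasl1, 2 of 3 vehicle livers were above 32. The 3 members that rose, of 6, compare with 0.506% of all genes that rose in this comparison. Oas2 and Oas3 differed by 0.07 and 0.05 on the log2 scale at the floor (adjusted p = 0.682 and 0.523). With only these 6 mice in the fit, Oasl1 still passed, while Oas1a and Oasl2 had adjusted p of 0.0782 and 0.112.

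At 16 h the same members were still high in NTS-1 livers. Oas1a read 1021, 1235, 761 and 1158 in NTS-1 livers, against 232, 91.8 and 171.6 in vehicle livers, a rise of 2.74 ± 0.26 on the log2 scale (6.66-fold, adjusted p = 7.4e-07). Oasl1 read 594, 1211, 619.6 and 828 in NTS-1 livers, against 112.4, 57.3 and 152.4 in vehicle livers (2.97 ± 0.60, 7.84-fold, adjusted p = 0.033). Oasl2 read 403, 480.2, 392 and 369 in NTS-1 livers, against 47.6, 18.6 and 43.8 in vehicle livers (3.60 ± 0.50, at least 10.1-fold with the 1 vehicle value under 32 taken as 32, adjusted p = 0.00029). No NTS-1 liver overlapped a vehicle liver, and 3 of 6 members rose, against 0.126% of all genes. The Oasl1 call was lost when any 1 of 5 mice was left out, at adjusted p of 0.0625 to 0.14, with changes of 2.57 to 3.08. Without the vehicle mouse rich in neutrophil markers the changes were 3.03, 3.06 and 3.84 for Oas1a, Oasl1 and Oasl2, with adjusted p of 4.0e-07, 0.0755 and 0.000702. Fitted on these 7 mice alone, none of the 3 passed (adjusted p = 0.415, 0.518 and 0.372).

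By 72 h the levels in NTS-1 livers were near those of vehicle. Oas1a read 108, 108 and 115.6 in NTS-1 livers, against 99.8, 91.8 and 94.5 in vehicle livers. Oasl1 read 52.4, 82.1 and 97.4 in NTS-1 livers, against 51.4, 72.2 and 57.8 in vehicle livers. Oasl2 read 20.6, 21.6 and 27.7 in NTS-1 livers, against 15.6, 15.8 and 15.8 in vehicle livers. None of the members passed the test, like 0% of all genes. The groups were apart for Oas1a and Oasl2 and overlapped for Oasl1, but every Oasl2 value in both groups was under 32. The differences were 0.21 for Oas1a (95% interval -0.37 to 0.79), 0.32 for Oasl1 (SE 0.64) and 0.55 for Oasl2 (-0.54 to 1.64) on the log2 scale. No member had an unadjusted p below 0.05 at 72 h, a count of 0 in limma. The difference between the NTS-1 effects at 16 h and 8 h was -1.53 ± 0.39 for Oas1a, -2.84 ± 0.88 for Oasl1 and -1.68 ± 0.73 for Oasl2, and none passed the test (adjusted p = 0.332, 0.861 and 1), against 0.0715% of all genes. All 3 had an unadjusted p below 0.05. For Oas1a it passed without vehicle mouse 2 of 16 h (-1.90, adjusted p = 0.0247). Without vehicle mouse 1 of 16 h, rich in neutrophil markers, it was -1.23 for Oas1a, -2.75 for Oasl1 and -1.44 for Oasl2, each at an adjusted p of 1.

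**Figure D2:**
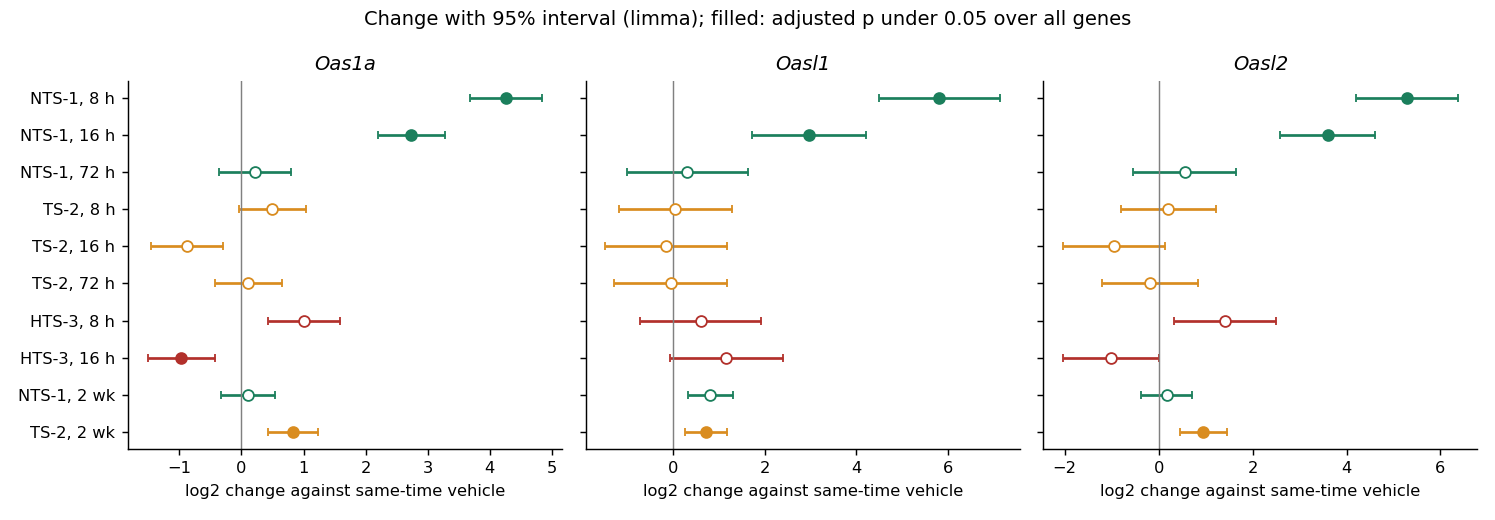
Log2 change of Oas1a, Oasl1 and Oasl2 against same-time vehicle mice (x axis) with its 95% interval, for the 10 comparisons with vehicle (rows); filled points passed the test. The largest changes are those of NTS-1 at 8 h (4.26, 5.81 and 5.28), and Oas1a after HTS-3 at 16 h lies below 0 (-0.97).

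Genes around the 2-5A pathway were read in the same NTS-1 livers. The list of enzymes and cofactors around 2-5A had 7 tested genes, and 1 of them rose at 8 h, where 0.506% of all genes rose. That gene was Eif2ak2, which encodes PKR, the kinase that senses double-stranded RNA (2.74 ± 0.57, adjusted p = 0.0121). Zc3hav1, an antiviral protein that binds RNA, and Adar, which edits double-stranded RNA, differed by 1.47 each without passing (adjusted p = 0.101 and 0.365). Pde12, which degrades 2-5A, differed by 0.24 ± 0.33 (adjusted p = 1). The median change over the 7 genes was 1.47, against 0 over all genes. At 16 h none of the 7 passed in limma, and Eif2ak2 differed by 1.25 ± 0.53 (adjusted p = 1, unadjusted p = 0.0259).

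Of the interferon signalling list, 3 of 19 tested genes rose at 8 h and 2 at 16 h, and none fell. Over all genes 0.506% rose at 8 h and 0.126% at 16 h. In the vehicle livers of 8 h, 7 of the 19 genes were dim on all arrays. Usp18, a protease that removes ISG15 and dampens the interferon receptor, rose by 6.06 ± 0.64 at 8 h (adjusted p = 5.9e-07) and by 3.19 ± 0.60 at 16 h (adjusted p = 0.0144). Irf7, the transcription factor that amplifies interferon production, rose by 4.46 ± 0.41 at 8 h and by 4.16 ± 0.38 at 16 h (adjusted p = 5.8e-08 and 5.6e-07). Irf9, the DNA-binding part of the interferon-activated complex, rose by 2.10 ± 0.43 at 8 h (adjusted p = 0.0103) and differed by 0.69 ± 0.40 at 16 h without passing. Stat2, its partner, differed by 0.28 ± 0.37 at 8 h (adjusted p = 1) and was dim in most of these livers. Ifnb1, which encodes interferon beta, read 4.60 in each NTS-1 liver at 8, 16 and 72 h, next to the floor of the arrays.

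Of 14 nucleic acid sensors, 4 rose at 8 h and 1 at 16 h, against 0.506% and 0.126% of all genes. Zbp1, a sensor of Z-form nucleic acids, rose by 3.78 ± 0.65, Dhx58 by 2.87 ± 0.34, Ddx58 (RIG-I) by 2.01 ± 0.32 and Ifih1 (MDA5) by 1.90 ± 0.43 at 8 h (adjusted p = 0.00134, 5.7e-06, 0.00036 and 0.0301). Dhx58, which encodes LGP2, was the sensor that rose at 16 h (2.39 ± 0.32, adjusted p = 0.00024). The call of Ifih1 at 8 h was lost when any 1 of the 6 mice was left out (adjusted p = 0.0504 to 0.0967), and those of Eif2ak2 and Irf9 without vehicle mouse 1 (0.0778 and 0.0722). Eif2ak2 was also lost without NTS-1 mouse 3 (0.0617), and Usp18 at 16 h without any 1 of 4 mice (0.0525 to 0.086). Among the other Oas1 genes, Oas1c, Oas1e, Oas1f and Oas1h had a probe set of their own, and all 4 were dim on every single-dose array. Oas1c rose at 8 h within that range, to 18.0 to 25.8 in NTS-1 livers, against 6.36 to 6.39 in vehicle livers (1.71 ± 0.18, adjusted p = 4.7e-07), and no fold is given.

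**Figure D3:**
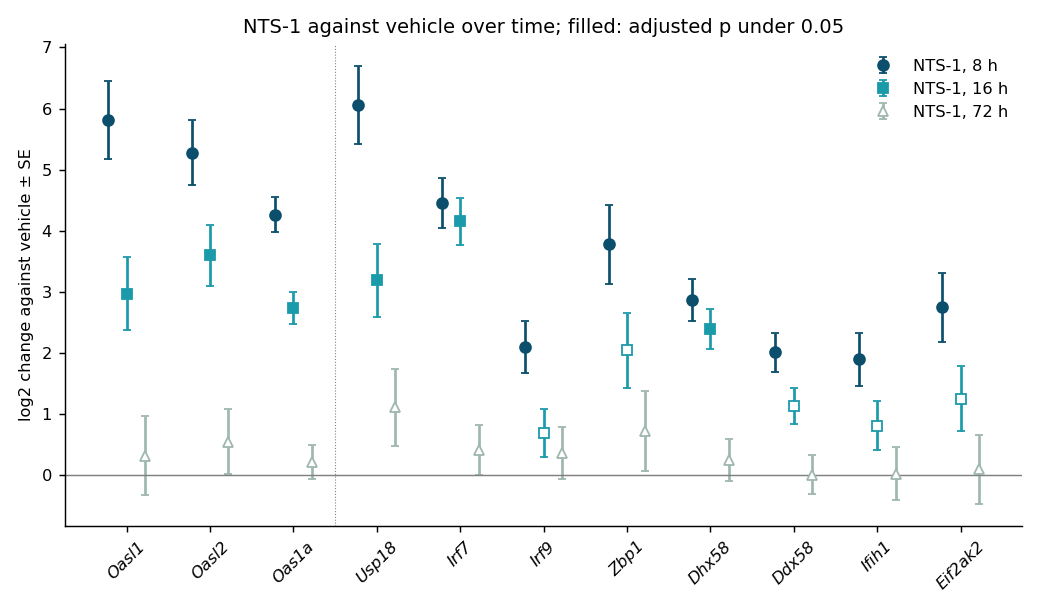
Log2 change ± SE of 3 members and 8 pathway genes in NTS-1 livers against same-time vehicle livers at 8, 16 and 72 h; filled symbols passed the test. None of the 11 genes passed at 72 h, while Irf7 was nearly as high at 16 h (4.16) as at 8 h (4.46).

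Summed markers of macrophages and plasmacytoid dendritic cells were also higher in NTS-1 livers at 8 h, while neutrophil sums overlapped with those of vehicle livers. The summed intensity of the Kupffer cell and macrophage list ran from 20315 to 29831 in NTS-1 livers, against 15045 to 18038 in vehicle livers. Of its 11 genes 1 rose (Fcgr1, an Fc receptor, 3.38 ± 0.51), where 0.506% of all genes rose. Vehicle livers were dim for Fcgr1 on average, so its rise is given as at least 6.92-fold. The neutrophil list summed to 162 to 515 in NTS-1 livers, against 65.0 to 174 in vehicle livers, with none of 7 measured genes past the test. The plasmacytoid dendritic cell list summed to 10296 to 11239 in NTS-1 livers, against 6025 to 7406 in vehicle livers, but 5 of its 6 measured genes were dim on all these arrays, Siglech, its defining receptor, read 4.56 in every NTS-1 and vehicle liver, and the sum followed Bst2, itself a target of interferon (0.71 ± 0.14, adjusted p = 0.00541). The part of these cells in the Oas rise was not tested. As a measure of RNA quality, the Actb 3' signal exceeded the 5' signal by 1.501 to 1.577 on the log2 scale in NTS-1 livers at 8 h, against 1.387 to 1.689 in vehicle livers.

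TS-2, labelled toxic, was not followed by a rise of any member after a single dose. At 8 h Oas1a read 108, 141.8, 136.9 and 96.9 in TS-2 livers, against 91.0, 66.4 and 100.6 in vehicle livers, with overlapping groups (0.49, 95% interval -0.05 to 1.04). Oasl1 read 22.7, 23.4, 70.0 and 47.0 in TS-2 livers, against 31.1 to 38.8 in vehicle livers (0.06, -1.18 to 1.29). Oasl2 read 15.8 to 33.3 in TS-2 livers, against 12.0 to 32.3 in vehicle livers (0.21, -0.81 to 1.22). At 72 h the differences were 0.11 for Oas1a (-0.43 to 0.65), -0.04 for Oasl1 (-1.28 to 1.19) and -0.18 for Oasl2 (-1.20 to 0.84). The count of members called was 0 at 8, 16 and 72 h, against 0.044%, 0.0165% and 0.137% of all genes. Without adjustment, limma gave 0, 1 and 0 members below 0.05, and the single one was Oas1a at 16 h.

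At 16 h Oas1a lay below vehicle in the livers of both toxic sequences, and the HTS-3 change passed the test. TS-2 livers read 85.6, 82.1 and 84.0, against 232, 91.8 and 171.6 in vehicle livers, which did not overlap and did not pass the test (-0.88 ± 0.28, adjusted p = 0.915). Without vehicle mouse 1, rich in neutrophil markers, the TS-2 change was -0.58 (adjusted p = 1). HTS-3 livers read 89.8, 66.6, 81.7 and 78.0, also below every vehicle liver, and Oas1a fell 1.96-fold in them (-0.97 ± 0.26, adjusted p = 0.0201). It was the 1 member of 6 that fell after HTS-3 at 16 h, where 4.03% of all genes fell. The call depends on single mice: without vehicle mouse 1 the change was -0.67 (adjusted p = 0.214), without vehicle mouse 3 it was -0.89 (0.0844), and without HTS-3 mouse 2 it was -0.89 (0.0577). Without HTS-3 mouse 4 it passed (-0.97, 0.0476). With only these groups in the fit the adjusted p was 0.374. The 3 vehicle mice of 16 h also stand behind the other 16 h comparisons. Oasl2 read 15.8 to 21.6 in TS-2 livers and 13.4 to 22.3 in HTS-3 livers, against 18.6 to 47.6 in vehicle livers, and neither change passed (-0.94 and -1.01, adjusted p = 1 and 0.276). Without vehicle mouse 1 these changes of Oasl2 were -0.70 and -0.76, and without HTS-3 mouse 4 the HTS-3 change was -1.15 (adjusted p = 1, 0.718 and 0.285).

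The summed macrophage markers were also lower in HTS-3 livers at 16 h. Their sum ran from 12537 to 19956 in HTS-3 livers, against 21600 to 46760 in vehicle livers, and 4 of 11 markers fell, among them C1qa (-0.97 ± 0.22) and C1qb (-1.07 ± 0.29), subunits of complement C1q. In this comparison 4.03% of all genes fell. The highest vehicle sum, 46760, was that of mouse 1, and the other vehicle sums were 21600 and 21675. Without that mouse none of the 11 markers passed in limma (C1qa -0.69, adjusted p = 0.0669, and C1qb -0.66, adjusted p = 0.251), although 3 had an unadjusted p below 0.05, and without HTS-3 mouse 4 there were 2 that fell. Their part in the lower Oas1a was not tested. The vehicle livers were also compared between times. Oas1a at 16 h stood at 0.86 ± 0.28 above 8 h, Oasl1 at 1.51 ± 0.64 and Oasl2 at 0.92 ± 0.53 on the log2 scale. None of them passed (adjusted p = 0.206, 0.378 and 0.696), against 0.934% of all genes, although 2 had an unadjusted p below 0.05. Without vehicle mouse 2 of 16 h, the lowest of its group, Oas1a passed (1.24, adjusted p = 0.029). Without vehicle mouse 1 of 16 h, rich in neutrophil markers, the differences were 0.57, 1.42 and 0.67 for Oas1a, Oasl1 and Oasl2 (adjusted p = 0.623, 0.618 and 1). Between 72 h and 8 h the vehicle differences were 0.17, 0.78 and -0.18, and no member was called, against 0.901% of all genes.

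HTS-3 livers at 8 h held more Oas1a and Oasl2 in some mice. Oas1a read 274, 159.7 and 112.2 in HTS-3 livers, all above the vehicle livers (91.0, 66.4 and 100.6), a difference of 1.00 ± 0.28 that did not pass (adjusted p = 0.123). Oasl2 read 170.9, 39.7 and 15.8 in HTS-3 livers, against 14.6, 12.0 and 32.3 in vehicle livers (1.41 ± 0.53, adjusted p = 0.289). Oasl1 read 58.9, 66.0 and 38.8 in HTS-3 livers, against 38.8, 35.2 and 31.1 in vehicle livers (0.61 ± 0.64, adjusted p = 1). The lowest HTS-3 value of each gene came from mouse 3, whose labels disagree on its time. Without this mouse Oas1a (1.30, adjusted p = 0.0342) and Oasl2 (2.21, adjusted p = 0.0325) rose, and with it moved to 16 h both also passed (0.038 and 0.032). Without mouse 1, the highest, the changes were 0.66 for Oas1a and 0.49 for Oasl2. With all 3 mice none of the 6 members was called, against 0.588% of all genes, and 2 had an unadjusted p below 0.05. In mouse 1 Usp18 read 1746 and Irf7 read 317, against 397 and 136 in mouse 2 and 265 and 86.1 in mouse 3.

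The summed macrophage markers were also higher in HTS-3 livers at 8 h. Their sum was 41970, 27192 and 24091 in HTS-3 mice 1, 2 and 3, against 15045 to 18038 in vehicle livers, an order that Oas1a and Oasl2 shared among the HTS-3 mice. Of the 11 markers 1 rose, Fcgr1 (2.23 ± 0.51, at least 3.13-fold as vehicle livers were dim, adjusted p = 0.0344). The median change was 0.96 over the list and 0 over all genes. In this comparison 0.588% of all genes were called in either direction. Without mouse 3 there were 3 that rose, Timd4, C1qa and Cd68 (2.00, 1.01 and 1.98, adjusted p = 0.0264, 0.0471 and 0.0432), while Fcgr1 no longer passed (2.14, adjusted p = 0.0699). Their part in the Oas levels was not tested.

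The HTS-3 effect on Oas1a differed between times. Relative to same-time vehicle it was 1.00 at 8 h and -0.97 at 16 h, and the difference of -1.98 ± 0.39 passed the test (adjusted p = 0.00711). It passed without vehicle mouse 1 of 16 h (-1.68, adjusted p = 0.0309), without HTS-3 mouse 1 of 8 h (-1.63, 0.028), without mouse 3 of 8 h (-2.27, 0.00162), without mouse 4 of 16 h (-1.97, 0.0141) and with mouse 3 moved to 16 h (-2.17, 0.00558), but not with only these groups in the fit (0.51). Oasl2 differed by -2.42 ± 0.73 without passing (adjusted p = 0.109) and passed at -3.22 without mouse 3 (0.00755), but not without vehicle mouse 1 of 16 h (-2.18, 0.268) or HTS-3 mouse 4 of 16 h (-2.56, 0.119). Oasl1 differed by 0.56 ± 0.88, by 0.65 without that vehicle mouse, by 0.33 without mouse 3 and by -0.21 without mouse 4. The member called was 1 of 6 in this comparison, which is read against 1.08% of all genes lower at 16 h than at 8 h. Macrophage markers moved with it: 6 of 11 were lower in the same comparison, among them Fcgr1 (-4.22 ± 0.69, adjusted p = 0.00135), Timd4 (-2.32 ± 0.60, 0.0493), C1qb (-2.24 ± 0.42, 0.0055) and Cd5l (-1.83 ± 0.41, 0.0199). Without vehicle mouse 1 of 16 h there were 3 of 11, without HTS-3 mouse 3 of 8 h 7 and without HTS-3 mouse 4 of 16 h 4. Their part in the difference was not tested. The TS-2 effect at 72 h against 8 h gave 0 members called, against 0.044% of all genes, with a difference of -0.38 for Oas1a (95% interval -1.15 to 0.38) and 0 members below an unadjusted p of 0.05.

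Oasl1 levels did not run with those of the other members in HTS-3 livers at 16 h. It read 186.1, 88.5, 135.6 and 1111 in HTS-3 livers, against 112.4, 57.3 and 152.4 in vehicle livers, where Oas1a and Oasl2 were low in all 4 HTS-3 mice. The highest value came from mouse 4, which reached the range of NTS-1 livers at 16 h (594 to 1211) while its Oas1a read 78.0 and its Oasl2 read 22.3. The difference of the group was 1.17 ± 0.60 (adjusted p = 0.31) and 0.39 ± 0.49 without this mouse (adjusted p = 1), which also had the lowest Actb 3' excess. Without vehicle mouse 1 it was 1.26 (adjusted p = 0.475). In the same mouse Ifih1 read 2731, against 1547, 1082 and 641 in the other HTS-3 mice, and Tlr3, an endosomal sensor of double-stranded RNA, read 129, against 42.4, 22.9 and 28.5. Usp18 read 487 in it, against 280.0, 170.4 and 133.6.

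**Figure D4:**
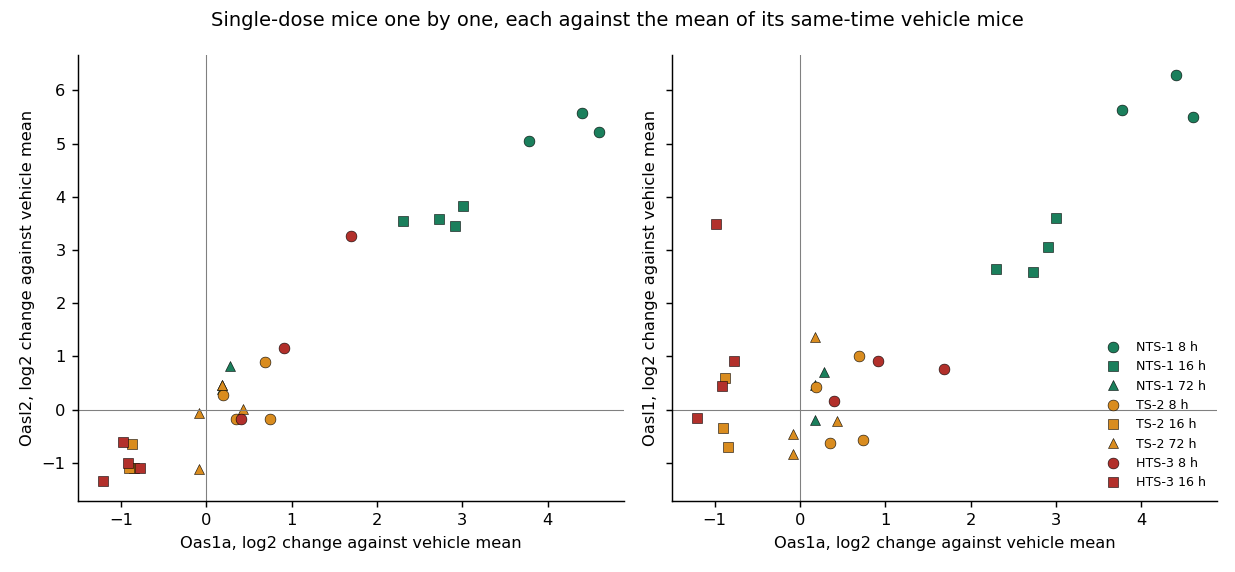
Each treated single-dose mouse, as the log2 change of Oas1a (x axis) and of Oasl2 (left) or Oasl1 (right) against the mean of its same-time vehicle mice; colours give the gapmer and symbols the time. Oasl2 lies along the change of Oas1a, while for Oasl1 the HTS-3 mouse 4 of 16 h lies high at a negative Oas1a value.

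The sequences were compared directly at matched times. At 8 h TS-2 livers were lower than NTS-1 livers, with differences of -3.77 ± 0.26 for Oas1a, -5.75 ± 0.60 for Oasl1 and -5.07 ± 0.50 for Oasl2 on the log2 scale (adjusted p = 2.7e-10, 5.1e-07 and 1.7e-07). HTS-3 livers were also lower than NTS-1 livers, with differences of -3.26 ± 0.28, -5.20 ± 0.64 and -3.87 ± 0.53 (adjusted p = 2.1e-08, 1.4e-05 and 6.4e-05). Without HTS-3 mouse 3 these were -2.96, -4.97 and -3.07, and all passed (adjusted p = 3.5e-07, 0.000223 and 0.000819). All groups were apart, and 3 of 6 members were lower in each of these comparisons, against 0.506% of all genes for TS-2 and 0.5% for HTS-3. At 16 h TS-2 minus NTS-1 was -3.61, -3.12 and -4.54 (adjusted p = 2.9e-09, 0.0111 and 4.0e-06), again 3 of 6, against 0.225% of all genes. HTS-3 minus NTS-1 was -3.71 for Oas1a, -1.80 for Oasl1 and -4.61 for Oasl2 (adjusted p = 2.2e-11, 0.0374 and 5.1e-08), also 3 of 6, against 4.46% of all genes. These comparisons share the NTS-1 mice. With only the compared groups in the fit, HTS-3 against NTS-1 at 8 h passed for none of the 3 (adjusted p = 0.327, 0.0683 and 0.888).

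Oasl1 was the least certain of these calls at 16 h. Its groups overlapped between HTS-3 and NTS-1 because of mouse 4, and the call was lost when any 1 of 6 of the 8 mice was left out (adjusted p up to 0.154), though not without mouse 4 itself (-2.58, adjusted p = 0.00039). Without mouse 4, Oas1a and Oasl2 differed by -3.70 and -4.74. The Oasl1 call was also lost with the Actb 3' excess as a covariate, an alternative chosen after the data were seen (-1.56, adjusted p = 0.0523), and with only the compared groups in the fit (adjusted p = 0.397). Between TS-2 and NTS-1 it was lost without any 1 of 3 mice (up to 0.14) and with only the compared groups in the fit (0.139). At 72 h no member was called between TS-2 and NTS-1, against 0.17% of all genes, with differences of -0.10 for Oas1a (95% interval -0.64 to 0.44), -0.36 for Oasl1 (-1.60 to 0.87) and -0.73 for Oasl2 (-1.75 to 0.29). Between HTS-3 and TS-2, 0 members were called at 8 h and at 16 h, against 0.264% and 5.95% of all genes. Oas1a differed there by 0.51 at 8 h (-0.03 to 1.05) and by -0.09 at 16 h (-0.64 to 0.45), by 0.81 at 8 h without HTS-3 mouse 3 (adjusted p = 0.311) and by -0.09 at 16 h without HTS-3 mouse 4. Below an unadjusted p of 0.05 were 0 members for TS-2 and NTS-1 at 72 h and 1 member at each time for HTS-3 and TS-2, namely Oasl2 at 8 h (1.21 ± 0.50, adjusted p = 0.495) and Oasl1 at 16 h (1.31 ± 0.60, adjusted p = 0.279). Without HTS-3 mouse 3 Oasl2 at 8 h differed by 2.00 (adjusted p = 0.0686), and without HTS-3 mouse 4 Oasl1 at 16 h differed by 0.54 (adjusted p = 0.971).

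The order of the single-dose groups by mean level began with NTS-1 at 8 h and NTS-1 at 16 h for each of the 3 genes. For Oas1a these groups overlapped with each other and were apart from the next, HTS-3 at 8 h (geometric mean 169.9), below which each neighbouring pair of groups overlapped down to HTS-3 at 16 h (78.6). For Oasl2 both NTS-1 groups were apart from each other and from HTS-3 at 8 h (47.6), and all later neighbours overlapped. For Oasl1, NTS-1 at 16 h overlapped with HTS-3 at 16 h (223), followed by vehicle at 16 h (99.4), and vehicle at 8 h came last (34.9).

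The members did not follow each other equally. Over the 37 single-dose arrays Pearson's r of the log2 levels was 0.97 between Oas1a and Oasl2, 0.80 between Oas1a and Oasl1 and 0.83 between Oasl1 and Oasl2. Spearman's rho was 0.79, 0.39 and 0.70 for the same pairs. These arrays share treatment groups, and the NTS-1 mice carry much of the spread. Over the 27 arrays without NTS-1, a choice made after the values were seen, r was 0.81 between Oas1a and Oasl2, -0.08 between Oas1a and Oasl1 and 0.20 between Oasl1 and Oasl2. By rank, rho was 0.57, -0.16 and 0.43 for the same pairs, lower than r for the pairs with Oas1a and higher for Oasl1 and Oasl2. The coefficients describe these arrays and carry no test.

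The genes most like each member were taken from the 9131 other genes that reached 32 on at least 3 single-dose arrays. Oas1a was most like Irf7 (r = 0.97, Spearman's rho 0.77), Phf11d (0.95, 0.83) and Shisa5 (0.94, 0.71). Oasl2 was most like Irf7 (0.96, 0.79), Ifit2 (0.96, 0.82) and Shisa5 (0.95, 0.77). Oasl1 was most like Ddx58 (0.93, 0.79), Ifit1 (0.89, 0.76) and Dhx58 (0.89, 0.75). Ifit1 and Ifit2 encode interferon-induced proteins with tetratricopeptide repeats. Without the 10 NTS-1 arrays the leading genes were Fcgr4, Rtp4 and Plac8 for Oas1a (r = 0.81 each), Themis2, Gbp3 and Timd4 for Oasl2 (0.86, 0.86 and 0.84), and Pgd, Champ1 and Fcsk for Oasl1 (0.88, 0.87 and 0.85). Pgd, an enzyme of the pentose phosphate pathway, read 8681 in HTS-3 mouse 4 of 16 h, against 4541, 2975 and 3244 in the other HTS-3 mice and 2875 to 3621 in vehicle mice.

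**Figure D5:**
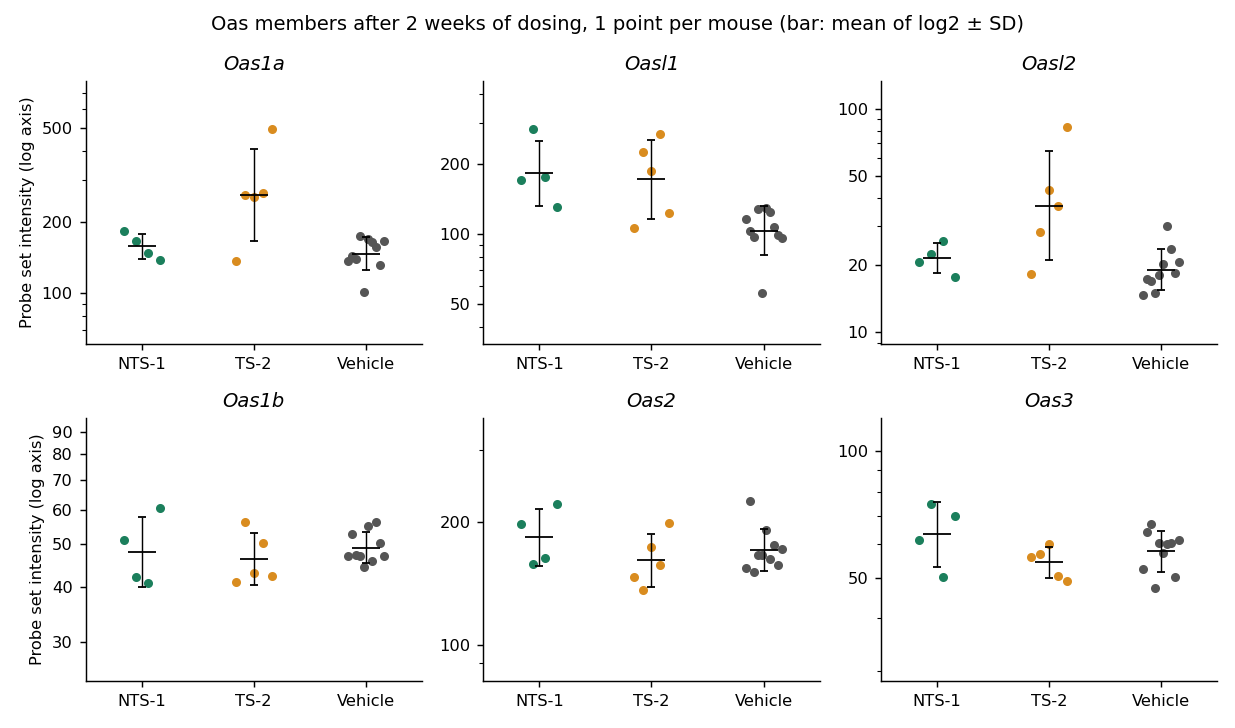
Intensity of the 6 members (log axes, 1 scale per gene) in each mouse of the 2-week study by group, with the mean of the log2 values ± SD as a bar. Oas1a, Oasl1 and Oasl2 are higher in TS-2 livers than in vehicle livers, with 1 TS-2 mouse highest for Oas1a (493.5) and Oasl2 (83.2), and Oas1b, Oas2 and Oas3 overlap in all groups.

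After 2 weeks of dosing Oas1a, Oasl1 and Oasl2 rose in TS-2 livers. Oas1a read 137.2, 260.0, 254, 265 and 493.5 in TS-2 livers, against 101.1 to 174.1 with a median of 149.8 in the 10 vehicle livers, and 4 of 5 TS-2 livers were above the vehicle mean. Oasl2 read 18.2, 28.1, 43.3, 36.6 and 83.2 in TS-2 livers, against 14.8 to 29.96 with a median of 18.2 in vehicle livers. Oasl1 read 106.5, 226, 187.5, 269 and 123.4 in TS-2 livers, against 56.2 to 129.8 with a median of 105.3 in vehicle livers. Each gene's groups overlapped. The changes were 0.83 ± 0.19 for Oas1a (1.77-fold, adjusted p = 0.00213), 0.73 ± 0.22 for Oasl1 (1.66-fold, adjusted p = 0.013) and 0.95 ± 0.24 for Oasl2 (at least 1.32-fold, adjusted p = 0.00385). This was 3 of 6 members, where 22.8% of all genes rose. Oas1b, Oas2 and Oas3 differed by -0.09 each, with 95% intervals of -0.29 to 0.12, -0.31 to 0.14 and -0.29 to 0.12. Whether these 3 probe sets read their genes above background on these arrays was not tested.

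Without TS-2 mouse 5, the highest for Oas1a and Oasl2, the rises were 0.59, 0.85 and 0.65 for Oas1a, Oasl1 and Oasl2 and each still passed (adjusted p = 0.00783, 0.00856 and 0.0146). Leaving out TS-2 mouse 4 ended the Oasl1 call (0.57, adjusted p = 0.0582). With vehicle mice 6 to 10 as the only controls, Oasl1 (0.63, adjusted p = 0.072) and Oasl2 (0.73, adjusted p = 0.0842) no longer passed. NTS-1 livers after 2 weeks read 182.5, 165.7, 148.0 and 137.3 for Oas1a and 20.7, 22.5, 25.7 and 17.8 for Oasl2, and all but 1 of these values lay within the vehicle range, the exception being 182.5 for Oas1a. Oasl1 read 170.7, 284, 175.7 and 131 in NTS-1 livers, above all vehicle livers, and narrowly missed the threshold (0.82 ± 0.24, adjusted p = 0.0508). None of the 6 members was called for NTS-1 at 2 weeks, against 4.91% of all genes, with 1 below an unadjusted p of 0.05.

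Set against each other at 2 weeks, TS-2 livers had more Oas1a than NTS-1 livers (0.72 ± 0.24, 1.65-fold, adjusted p = 0.0356). That made 1 of 6 members higher, against 14.1% of all genes. The call was lost when any 1 of 7 of the 9 mice was left out (adjusted p = 0.0509 to 0.0984). Oasl2 differed by 0.78 ± 0.29 (adjusted p = 0.0643), and Oasl1 by -0.09 (95% interval -0.65 to 0.48).

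The pathway lists in TS-2 livers at 2 weeks showed 4 of 7 genes around 2-5A higher, 7 of 16 interferon signalling genes and 6 of 13 sensors, and none lower in these lists, where 22.8% of all genes rose. Pde12, which degrades 2-5A, rose by 1.03 ± 0.15, Samhd1 by 0.83 ± 0.19, Zc3hav1 by 0.76 ± 0.12 and Adar by 0.64 ± 0.12 (adjusted p of 0.00149 or below). Usp18 rose by 3.22 ± 0.39, with 370.3 to 2771 in TS-2 livers, against 89.5 to 240.9 in vehicle livers. Irf7 rose by 1.11 ± 0.24, Irf9 by 0.88 ± 0.22, Zbp1 by 1.74 ± 0.29, Ddx58 by 0.93 ± 0.13 and Tlr3 by 0.88 ± 0.17. Stat2 differed by -0.18 ± 0.12 (adjusted p = 0.255). In NTS-1 livers at 2 weeks, none of the 7 genes around 2-5A and none of the 16 signalling genes passed, and Mavs, the adaptor of the RIG-I-like receptors, was the 1 of 13 sensors that rose (0.45 ± 0.12, adjusted p = 0.0371). In that comparison 4.91% of all genes were called in either direction. The Mavs call was lost without any 1 of 8 mice (adjusted p up to 0.14).

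Some cell markers also differed between TS-2 and vehicle livers at 2 weeks. The macrophage list summed to 2666, 3729, 4106, 4571 and 15088 in TS-2 mice 1 to 5, against 2001 to 7703 in vehicle livers. Only mouse 5 lay above the vehicle range, and it was also the highest for Oas1a and Oasl2. Of the 11 macrophage markers 2 rose (Marco, 1.71 ± 0.53, and Cd68, 1.21 ± 0.38), which is a smaller share than the 22.8% of all genes. The stellate cell list summed to 5660 to 11345 in TS-2 livers, against 4199 to 7028 in vehicle livers, and 3 of 6 markers rose, the collagen genes Col3a1 (0.82 ± 0.30) and Col1a1 (0.53 ± 0.15) and the proteoglycan gene Dcn (0.62 ± 0.16). The sinusoidal endothelium list summed to 951 to 2372 in TS-2 livers, against 2200.5 to 3694 in vehicle livers, and 4 of 6 markers fell. In this comparison 37.4% of all genes were called in either direction and 22.8% of all genes rose, so the share that fell is the smaller part. Their part in the higher Oas levels was not tested. Over the 19 arrays of this study the genes most like Oas1a were Pank2, Iqgap1 and Lgals3 (r = 0.95, 0.93 and 0.93), those most like Oasl2 were Tacc2, Ogfr and Tgif1 (0.93, 0.93 and 0.92), and those most like Oasl1 were Rsad2, Prnp and Ifit1 (0.85, 0.85 and 0.83). Those most like Oas1b were Tigd3, Scrt1 and Cpne6 (r = 0.86, 0.86 and 0.81), those most like Oas2 were 1700071K01Rik, Crlf2 and Chrng (0.80 each), and those most like Oas3 were Tmc2, Oxt and Kprp (0.77 each). Between members r was 0.88 for Oas1a and Oasl2, 0.51 for Oas1a and Oasl1 and 0.37 for Oasl1 and Oasl2, with rho of 0.68, 0.65 and 0.51, again as a description with no test.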

How the data were processed

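Liver RNA of 56 mice in 14 groups was hybridised to Affymetrix arrays of 45101 probe sets, with an array for each mouse. The authors used RMA, per the submitters' processing notes, and no version is named there. The deposited intensity values are linear and were converted to log2. The labels number the arrays of a group as biological replicates. The number of arrays limits the precision.

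Probe sets with exactly 1 gene symbol were used (34958, while 932 had several and 9211 none), and a gene was read from its probe set with the highest mean. Probe sets at or above the 40th percentile on at least 3 arrays were kept, which left 18194 single-dose and 14454 2-week genes. In the single-dose set that percentile was the floor of 4.56 itself, so the filter dropped no gene there. Of those 18194 genes, 3231 read 4.56 in every mouse. They still count in the adjustment and in the single-dose shares of all genes. Limma 3.58.1 in R 4.3.3 was fitted to each set of arrays with a mean per group, empirical Bayes moderation and Benjamini-Hochberg adjustment at 0.05. The 23 comparisons were 10 with same-time vehicle, 8 between sequences, 3 between times of an effect and 2 between vehicle times. Comparisons of a time share its vehicle mice. A fold in which a group lay under an intensity of 32 took values under 32 as 32. Errors of log2 changes are SE.

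The members and lists were chosen with earlier results of these data known. The 11 lists held 108 genes, of which 96 were measured. The text names the members, the other Oas1 genes, from each pathway list up to 4 called genes with the greatest change in a comparison, Irf7, Irf9 and Stat2 always, and the 3 genes most correlated with each member. Cell markers, pathway genes that did not pass, Mavs and the single-mouse values of Usp18, Irf7, Ifih1, Tlr3 and Pgd were chosen after their values were seen.

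On simulated data, 58% of 2-fold and 93% of 4-fold changes were recovered for NTS-1 at 8 h, with 5 false calls among 18194 genes. For TS-2 after 2 weeks the shares were 93% and 97%, with 8 false calls among 14454. No 2 arrays were identical among 837 pairs. Same-numbered mice deviated together in every pair in 1 comparison of 20 (TS-2 with vehicle, 8 h), and r ran from -0.50 to 0.47 over all 20. Alternatives changed the normalization, the filter, array weights, the groups fitted, the vehicle mice, covariates, the time of the mouse with conflicting labels, and left out each mouse in turn.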

Additional observations from a re-analysis of the deposited data

Results flagged for a closer look

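Vehicle mouse 5 of the 2-week study was the lowest of its 10 vehicle mice for Oas1a (101.1) and for Oasl1 (56.2), each further from its nearest neighbour than Dixon's 95% limit for 10 values allows. Such gaps were found 2 times in 26 sets of values tested, each holding 1 gene in 1 group of mice, and chance gives about 1 in 20. Both gaps belonged to this 1 mouse, so they are not separate cases. Without this mouse the TS-2 rises at 2 weeks were 0.77 for Oas1a and 0.63 for Oasl1 on the log2 scale, and both passed (limma, adjusted p = 0.00367 and 0.0171).

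The HTS-3 effect on Oas1a differed between 16 h and 8 h by -1.98 on the log2 scale (limma, adjusted p = 0.00711). All 3 HTS-3 mice at 8 h lay above their vehicle mean, and all 4 at 16 h lay below theirs. Levels of both groups enter this difference. At 8 h and 16 h the mean log2 level was 7.41 and 6.30 in HTS-3 livers and 6.40 and 7.27 in vehicle livers. With only these groups in the limma fit it did not pass (adjusted p = 0.51), and HTS-3 mouse 3 of 8 h has conflicting time labels.

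The TS-2 effect on Oas1a was 0.49 at 8 h and -0.88 at 16 h, and -0.58 at 16 h without vehicle mouse 1, which was rich in neutrophil markers. All 4 mice at 8 h lay above their vehicle mean and all 3 at 16 h below theirs, and the difference between these effects was not tested.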

How the results depend on the processing

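The 3 NTS-1 calls at 8 h held whichever mouse was left out. With the compared groups fitted alone, 1 member was called for NTS-1 at 8 h, 1 for NTS-1 at 2 weeks, 2 for HTS-3 and for TS-2 against NTS-1 at 16 h, and 0 for NTS-1 at 16 h, HTS-3 at 16 h, HTS-3 against NTS-1 at 8 h, the HTS-3 effect between times and TS-2 against NTS-1 at 2 weeks; such fits hold fewer mice. With array weights, 2 were called for HTS-3 at 8 h, HTS-3 at 16 h and the HTS-3 effect between times, and 1 for TS-2 at 16 h, HTS-3 against TS-2 at 8 h, the NTS-1 effect between times, vehicle at 16 h against 8 h and NTS-1 at 2 weeks. Quantile normalization and the Actb covariate each gave 1 for NTS-1 and 0 for TS-2 against NTS-1 at 2 weeks, and a filter at 32 gave 1 for NTS-1. The replicate block, where the mice share only a number, gave 0 for TS-2 against NTS-1 at 2 weeks (Oas1a 0.66, adjusted p = 0.182) and ended the Oasl1 call for NTS-1 at 16 h (2.81, adjusted p = 0.0771). Vehicle mice 6 to 10 alone gave 1 for TS-2 at 2 weeks. With the HTS-3 mouse of conflicting labels moved to 16 h, 2 were called for HTS-3 at 8 h and for its effect between times. Where a choice moved a call without fewer mice, the cause was not tested. Leaving out single mice gave 1 to 2 members for the HTS-3 effect, 0 to 2 for HTS-3 at 8 h, 0 to 1 for HTS-3 at 16 h, 2 to 3 for HTS-3 against NTS-1 at 16 h, 0 to 1 for the NTS-1 effect, 2 to 3 for NTS-1 at 16 h, 0 to 1 for NTS-1 at 2 weeks, 2 to 3 for TS-2 against NTS-1 at 16 h, 3 to 4 at 8 h and 0 to 2 at 2 weeks, 2 to 3 for TS-2 at 2 weeks and 0 to 1 for vehicle at 16 h against 8 h. The added member for TS-2 against NTS-1 at 8 h was Oas3, without NTS-1 mouse 3 (-0.068, limma adjusted p = 0.0446). Its single-dose values of 4.56 to 5.03 lay at or next to the floor, so this is not read as a response. Signs turned for changes that passed no test. Array weights gave -0.027 for Oas1a (TS-2, 72 h), -0.46 for Oasl1 (HTS-3 effect) and, for TS-2 against NTS-1 at 2 weeks, 0.033 for Oas1b and 0.0056 for Oasl1. The replicate block gave -0.11 for Oasl1 (TS-2, 8 h) and 0.069 (TS-2 against NTS-1, 2 weeks). The Actb covariate gave 0.11 for Oasl2 (HTS-3 against TS-2, 16 h), 0.022 and 0.047 for Oasl1 (TS-2 effect at 72 h against 8 h, and TS-2 at 72 h) and 0.0069 for Oas1b (TS-2 against NTS-1, 2 weeks). Moving the HTS-3 mouse gave 0.025 for Oas2 and -0.18 for Oasl1 (HTS-3 effect) and 0.0079 for Oas1a (HTS-3 against TS-2, 16 h), for which quantile normalization gave 0.017. Vehicle mice 1 to 5 gave 0.010 for Oas1b and mice 6 to 10 gave -0.051 for Oasl2 (NTS-1, 2 weeks). Without single mice the ranges were -0.0064 to 0.29 for Oas1a and -0.46 to 0.25 for Oasl2 (vehicle, 72 h against 8 h), -0.14 to 0.045 for Oas1b (NTS-1, 2 weeks), -0.13 to 0.057 for Oas1b and -0.25 to 0.12 for Oasl1 (TS-2 against NTS-1, 2 weeks), -0.070 to 0.042 for Oas2 (HTS-3 against NTS-1, 8 h), -0.21 to 1.00 for Oasl1 (HTS-3 effect) and -0.57 to 0.22 (TS-2 effect), -0.26 to 0.28, -0.54 to 0.16 and -0.51 to 0.22 for Oasl1 (TS-2 at 8, 16 and 72 h), -0.078 to 0.63 and -0.39 to 0.13 for Oasl2 (TS-2 at 8 and 72 h) and -0.20 to 0.083 for Oasl2 (HTS-3 against TS-2, 16 h). The floor of the single-dose arrays hides any change of Oas1b, Oas2 and Oas3 below it.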
